A study of Homo sapiens with 48 samples.

Results

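The 53 genes described here encode the machinery that shortens the poly(A) tail of an mRNA, removes its cap and degrades its body. They comprise 7 scaffold and other non-catalytic subunits of the CCR4-NOT complex, its 4 deadenylases, 3 BTG/TOB adaptors, 3 other deadenylase genes, 8 genes of decapping, the 7 genes of the cytoplasmic LSM ring, 2 exonucleases of the XRN family, 12 exosome genes and 7 genes of nonsense-mediated decay. They were chosen by gene symbol from the 19923 gene names in the deposited count tables. All 53 were found, and all 53 passed the filter on low counts in both cell lines.

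Kelly and NGP are human neuroblastoma cell lines, given in the labels as MYCN-amplified and wild type in genotype. Cells of each line were kept for 3 or 6 days in 8 µM STM2457, an inhibitor of the m6A methyltransferase METTL3, or in its vehicle DMSO. They then received 10 µg/ml actinomycin D, which blocks transcription, and were harvested at 0, 3 or 6 h. This gives 24 groups of 2 poly(A) RNA-seq libraries, 48 in all, by line, duration, treatment and hour, and the controls differ from the treated groups only in DMSO for STM2457. Each line stands for itself alone. The labels do not say whether the 2 libraries of a group come from separate cultures, so the p-values measure the spread between these libraries, which may be technical.

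In the cytoplasm an mRNA is usually lost in steps. The PAN2-PAN3 and CCR4-NOT complexes remove the poly(A) tail, and BTG/TOB proteins bring CCR4-NOT to tails bound by poly(A) binding protein. The LSM ring and PATL1 then bind the shortened 3′ end and, with DDX6, EDC3 and EDC4, promote removal of the cap by DCP2 and its cofactor DCP1, after which XRN1 degrades the body from the 5′ end. The exosome degrades RNA from the 3′ end, and DCPS clears the cap fragment that remains. UPF and SMG proteins direct mRNAs with a premature stop codon into these routes. Readers of m6A can recruit CCR4-NOT to methylated mRNAs, which is why the response of this machinery to a METTL3 inhibitor is of interest.

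The libraries held 11139550 to 21942238 fragments in genes, of which mitochondrial genes took 3.22% to 7.38%. Sequences of the ERCC spike-in, a set of added reference RNAs, took 0.265% to 0.671%. The targeted enzyme is inhibited and not depleted, so its mRNA gives no check of the treatment: METTL3 differed between STM2457 and DMSO at 0 h by 0.06, 0.21, 0.08 and 0.06 on the log2 scale in Kelly at 3 and 6 days and NGP at 3 and 6 days, with no call. Among the markers of sympathetic neuroblasts, GATA3 had DMSO means at 0 h of 282 CPM (fragment counts normalised per library, with TMM scaling) in Kelly and 394 CPM in NGP. The lines stood far apart in TH, the tyrosine hydroxylase of catecholamine synthesis, at 351 CPM in Kelly and 0.489 CPM in NGP. Of the markers for other cell types, ALB and CD3E were at 0 in all 8 of these libraries and EPCAM was the highest in NGP, with a mean of 2.56 CPM.

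Before any treatment effect, the machinery was expressed at very different levels, compared here per kilobase of exon in the 4 DMSO libraries of each line at 0 h. XRN2, the nuclear 5′ to 3′ exonuclease, was the highest, at 74.5 ± 8.70 CPM per kb (SD, n = 4) in Kelly and 72.9 ± 4.36 in NGP, while its cytoplasmic relative XRN1 stood at 10.3 ± 0.865 and 6.79 ± 1.06. CNOT1, the scaffold on which CCR4-NOT is built, was at 46.2 ± 1.55 in Kelly and 56.0 ± 3.01 in NGP. Its deadenylases were lower, from 5.36 for CNOT6L to 15.3 for CNOT6 in Kelly and from 5.43 for CNOT6L to 14.1 for CNOT8 in NGP. Among the LSM genes LSM4 was the highest, at 32.1 and 34.7, and LSM6 the lowest, at 4.35 and 8.24. EXOSC2 led the exosome in Kelly at 30.1 ± 4.87, a level that overlapped that of EXOSC5 at 28.4 ± 6.48, and EXOSC5 led in NGP at 36.9 ± 4.63. The lowest member in both lines was DCPS, the scavenger decapping enzyme, at 1.86 ± 0.186 and 1.61 ± 0.527 CPM per kb. The decapping enzyme DCP2 (8.30 and 8.35) and its cofactor genes DCP1A (5.99 and 5.88) and DCP1B (5.49 and 2.86) were also low. Reads of SMG1 may be split with its pseudogene copies, so its values are uncertain throughout.

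The first comparison, STM2457 against DMSO at 0 h, asked whether inhibition of METTL3 changed the level of the machinery itself. Few of these genes passed the test. In Kelly, 0 of 53 passed an adjusted p of 0.05 at 3 days (quasi-likelihood test of edgeR, adjusted over all genes tested by the Benjamini-Hochberg method and called edgeR from here on), where 1.68% of all tested genes did, and 2 of 53 passed at 6 days, where 3.97% did. In NGP, 0 passed at 3 days, where 3.70% of all tested genes did, and 5 passed at 6 days, where 7.99% did. At an unadjusted p under 0.05 there were 0, 10, 6 and 14 members in the same order. DESeq2 called 0, 5, 2 and 8 and limma-voom 0, 1, 0 and 4. The shares of all tested genes at these settings are not given here, so these counts are not read as an excess. The median log2 difference of the 53 members was -0.03, 0.04, -0.04 and -0.03, and that of all tested genes 0, 0, 0 and 0.02. With ERCC scaling 21 members passed higher in Kelly at 3 days, where the median of all genes was at 0.38. The other splits of higher and lower with that scaling were 0 and 7 (Kelly, 6 days), 1 and 0 (NGP, 3 days), and 1 and 3 (NGP, 6 days), in place of 1 and 1, 0 and 0, and 3 and 2. With the exon length trend removed the split in NGP at 6 days was 2 and 4. Members that did not pass are not shown to be unchanged. In simulated counts of the libraries at 6 days, 46.3% of 2-fold changes were recovered in Kelly and 50.7% in NGP over all genes. Among genes with a mean count of 300 or more, as 47 of the 53 members have in each line, 96.9% and 91.4% of 2-fold and 54.1% and 64.5% of 1.5-fold changes were recovered. The simulated spread followed the fitted trend on abundance and not each gene's own spread, so recovery of a given member may differ.

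The 2 members called in Kelly at 6 days were PAN2 and LSM3. PAN2 (chromosome 12, 56316223 to 56334053, GRCh38 as in all coordinates here), the catalytic subunit of the PAN deadenylase, was at 29.2 and 29.1 CPM in DMSO and at 12.5 and 18.4 in STM2457. The groups did not overlap, and the log2 difference was -0.92 ± 0.26 (SE), with an adjusted p of 0.0153 in edgeR. PAN2 also lay below DMSO in the 3 other comparisons, at -0.08 in Kelly at 3 days and -0.46 and -0.35 in NGP, none of them called in edgeR. By DESeq2 the NGP value at 3 days passed (-0.48, adjusted p 0.0286). Its partner PAN3 gave 0.06 in Kelly at 6 days. LSM3 (chromosome 3, 14178817 to 14201122) was at 40.5 and 56.9 CPM in DMSO and at 64.8 and 67.7 in STM2457, a log2 difference of 0.45 ± 0.14 with an adjusted p of 0.0483 by edgeR. Both calls were fragile. The PAN2 call was lost without DMSO replicate 1 (-0.94, adjusted p 0.0955), DMSO replicate 2 (-0.94, 0.0960) or STM2457 replicate 1 (-0.69, 0.532). The LSM3 call was lost without DMSO replicate 1, where the difference fell to 0.20 (0.969), STM2457 replicate 1 (0.46, 0.190) or STM2457 replicate 2 (0.39, 0.377). LSM3 also missed the threshold under 6 of the other settings, with adjusted p from 0.0667 to 0.550.

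In NGP at 6 days CNOT1 and SMG5 were lower under STM2457 and EXOSC4, DCPS and DDX6 higher. CNOT1 (chromosome 16, 58519951 to 58629885) was at 641 and 593 CPM in DMSO and at 506 and 482 in STM2457, a log2 difference of -0.32 ± 0.06 with an adjusted p of 0.000138 in edgeR. It stayed called whichever of the 4 libraries was left out. Its difference was -0.17 in NGP at 3 days and -0.04 and -0.07 in Kelly, not called in edgeR, and with the exon length trend removed the value in NGP at 3 days passed (-0.21, adjusted p 0.0336). About 10.0% of its exon bases overlap SETD6 on the other strand, and the headers name no strand option for the counting. SMG5 (chromosome 1, 156249224 to 156282825), which helps to dephosphorylate UPF1, was at 247 and 281 CPM in DMSO and 195 and 221 in STM2457. Its difference was -0.34 ± 0.08, with an adjusted p of 0.00306 by edgeR, and the call was lost without DMSO replicate 2 (-0.25, 0.169) or STM2457 replicate 1 (-0.26, 0.175). The 7 genes of nonsense-mediated decay lay from -0.39 (UPF3B) to -0.01 (UPF3A) in this comparison, with a median of -0.32. SMG5 was the member of them that passed. In Kelly at 6 days UPF3A (0.11), UPF3B (0.11), SMG1 (0.29) and SMG5 (0.23) lay above 0. UPF1 (-0.17), UPF2 (-0.05) and SMG6 (-0.13) lay below 0 there, and none of the 7 was called.

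EXOSC4 (chromosome 8, 144078648 to 144080648), a subunit of the exosome ring, was at 9.87 and 13.99 CPM in DMSO and at 23.96 and 28.5 in STM2457 in NGP at 6 days. The log2 difference was 1.14 ± 0.32, with an adjusted p of 0.0128 in edgeR. DCPS (chromosome 11, 126304060 to 126350005) was at 8.95 and 10.2 CPM in DMSO and 20.4 and 17.4 in STM2457, a difference of 0.98 ± 0.31 with an adjusted p of 0.0342 by edgeR. DDX6 (chromosome 11, 118747763 to 118791164), an RNA helicase that links CCR4-NOT to decapping, was at 154 and 129 CPM in DMSO and 161 and 179 in STM2457, a difference of 0.27 ± 0.09 with an adjusted p of 0.0389 by edgeR. In none of the 3 did the groups overlap. The EXOSC4 call was lost without DMSO replicate 1 (0.91, 0.209) or STM2457 replicate 2 (1.01, 0.117). The DDX6 call was lost without DMSO replicate 2 (0.14, 0.687) or STM2457 replicate 2 (0.19, 0.486). The DCPS call was lost in each of the 4 refits, without DMSO replicate 1 (0.89, 0.255) or 2 (1.08, 0.121) and without STM2457 replicate 1 (0.86, 0.258) or 2 (1.09, 0.0763).

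Few members passed a test of whether the effect at 0 h differed between durations or lines. The drug effect at 6 days differed from that at 3 days for 0 members in Kelly, where 0.788% of all tested genes differed, and for 0 in NGP, where 2.80% did. At an unadjusted p under 0.05 there were 6 and 7, DESeq2 called 2 and 2 and limma-voom 0 and 0. These counts stand without the shares of all tested genes and are not read as an excess. With ERCC scaling 26 members passed lower in Kelly, where the median of all genes was at -0.62, and 1 in NGP. By DESeq2 these were, named after their values were seen, LSM3 (0.65, adjusted p 0.0327) and EDC4 (0.54, 0.0119) in Kelly and EXOSC10 (0.33, 0.0131) and DIS3 (-0.51, 0.0287) in NGP. The drug effect differed between the lines for 0 members at 3 days (0.161% of all tested genes, with 3 members lower by ERCC scaling) and for 2 at 6 days (1.75%), namely EXOSC5 and SMG5. SMG5 moved to lower values in NGP, as given above, and was at 178 and 167 CPM in DMSO and 210 and 195 in STM2457 in Kelly. The difference of the effects, NGP minus Kelly, was -0.56 ± 0.13, with an adjusted p of 0.00511 in the joint edgeR fit. EXOSC5 was at 31.5 and 33.7 CPM in DMSO and 47.5 and 41.9 in STM2457 in Kelly, against 50.7 and 58.9 in DMSO and 39.1 and 41.3 in STM2457 in NGP. Its difference of effects was -0.89 ± 0.24, with an adjusted p of 0.0366 by edgeR.

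The loss of each transcript after transcription was blocked was read from 6 h minus 0 h of actinomycin D in DMSO. Since TMM puts the typical gene at about 0, a gene below 0 was lost faster than the typical gene and a gene above 0 more slowly. The members were lost at unlike rates: TOB1, TOB2, EXOSC4 and EXOSC9 were among those lost fastest in all 4 comparisons, and LSM3 and LSM4 among those lost slowest. In Kelly at 3 days 9 members were called higher and 12 lower, where 14.4% and 15.6% of all tested genes were, in edgeR. In Kelly at 6 days 12 were higher and 9 lower (13.2% and 13.3% of all tested genes). In NGP at 3 days 16 were higher and 10 lower (19.0% and 18.4%), and in NGP at 6 days 10 were higher and 16 lower (18.0% and 18.7%). The members' median change was -0.02, -0.03, -0.03 and 0.03, and that of all tested genes 0, 0.05, -0.01 and -0.05.

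These directions hold relative to the typical gene. Scaled to library size alone, the splits of higher and lower members were 6 and 17, 7 and 16, 7 and 19, and 5 and 22 in the order of Kelly at 3 and 6 days and NGP at 3 and 6 days. With a trend on exon length removed, 12 were higher and 10 lower in Kelly at 3 days. Scaled to the ERCC spike-ins they were 1 and 24, 0 and 53, 0 and 42, and 0 and 50, and the median of all genes was -0.34, -1.18, -0.81 and -1.10. The labels do not say when the spike-ins were added. ERCC scaling is used below to give each level at 6 h as a percentage of that at 0 h. Some of these levels lie above that at 0 h, so the percentages are not read as the share of a transcript left.

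The order of the members was similar in the 4 comparisons, which share no library with each other. Over the 53 genes Pearson's r of the changes was 0.931 between the durations in Kelly, 0.884 between those in NGP and 0.803 to 0.879 between the lines. Spearman's rank correlation was lower, at 0.860, 0.802 and 0.717 to 0.818 in the same order. Both are given as a description across genes of one scaling. In all, 36 members were called in at least 1 comparison and 17 in none, and SMG1 was called both higher (Kelly at 6 days, 0.28) and lower (NGP at 6 days, -0.24). Members lower in all 4 comparisons numbered 7 (13.2%), against 8.94% of the 14314 genes tested in both lines. Members higher in all 4 numbered 5 (9.43%), against 9.13% of those genes.

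**Figure D1:**
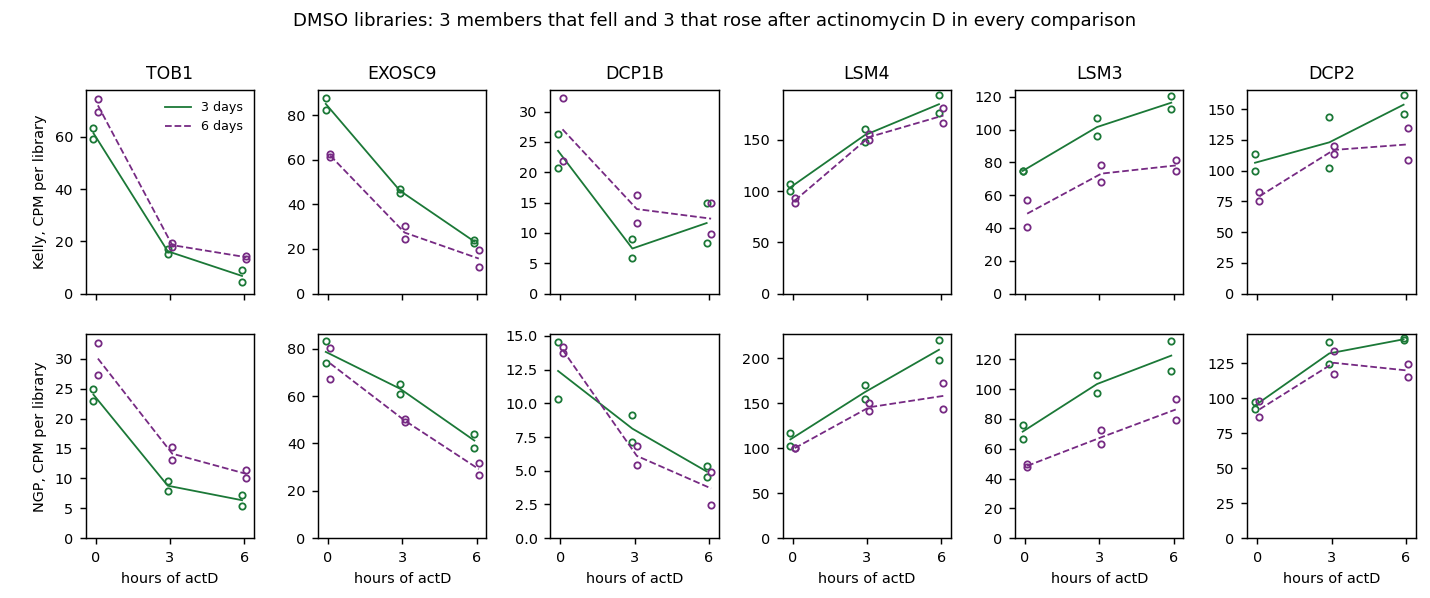
Level in CPM by hour of actinomycin D in DMSO for TOB1, EXOSC9, DCP1B, LSM4, LSM3 and DCP2, with 1 point per library, lines through the group means (solid 3 days, dashed 6 days), Kelly above and NGP below. TOB1, EXOSC9 and DCP1B fall from 0 to 6 h in each course, and LSM4, LSM3 and DCP2 rise relative to the typical gene.

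TOB1 (chromosome 17, 50862223 to 50867978) and TOB2 (chromosome 22, 41433494 to 41446801) encode the adaptors that tether CCR4-NOT to poly(A) binding protein. TOB1 was at 63.5 and 59.3 CPM in Kelly at 3 days, fell to 15.3 and 17.1 after 3 h and to 9.21 and 4.29 after 6 h. In NGP at 3 days it went from 25.0 and 23.0 CPM to 9.58 and 7.96 and then to 7.29 and 5.40. The groups at 0 and 6 h lay far apart in both lines. The change was -3.19 ± 0.28 (3 days) and -2.37 ± 0.27 (6 days) in Kelly, while NGP gave -1.91 ± 0.33 and -1.49 ± 0.32, with adjusted p from 2.89e-21 to 7.78e-05 in edgeR. TOB2 changed by -1.67, -1.55, -1.57 and -1.41. By ERCC scaling the level at 6 h was 8.12%, 7.97%, 15.3% and 17.2% of that at 0 h for TOB1. For TOB2 it was 23.2%, 14.1%, 19.3% and 18.1%. BTG3, the third adaptor gene of the set, was called in none of the 4 (-0.05, -0.77, 0.13 and 0.42).

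Of the non-catalytic CCR4-NOT subunits, CNOT2 and CNOT4 were lost faster than the typical gene in all 4 comparisons. CNOT2 (chromosome 12, 70242994 to 70355257), which with CNOT3 forms the NOT module, went from 76.8 and 66.8 CPM to 23.3 and 29.9 in Kelly at 3 days and from 1002 and 1006 CPM to 663 and 685 in NGP. Its change was -1.43 ± 0.19 and -1.45 ± 0.19 in Kelly and -0.57 ± 0.05 and -0.58 ± 0.05 in NGP. CNOT4 (chromosome 7, 135361795 to 135510127), a ubiquitin ligase that associates with the complex, changed by -1.15, -1.09, -0.59 and -0.69. Its NGP call at 3 days was lost without DMSO 0 h replicate 1 (-0.50, adjusted p 0.118) or 6 h replicate 2 (-0.59, 0.0506) by edgeR. CNOT9 was lower in 3 of the 4 (-0.91, -0.68, -0.13 and -0.45), and without 0 h replicate 1 in NGP at 6 days it was at -0.36 (0.0997). CNOT1 was higher in 3 of the 4, at 0.29, 0.22 and 0.33, and at -0.15 in NGP at 6 days. Its Kelly calls were lost without 6 h replicate 1 at 3 days (0.20, 0.0917) and without 0 h replicate 1 (0.22, 0.0669) or 6 h replicate 1 (0.14, 0.319) at 6 days. The deadenylase pairs moved less: CNOT6 gave 0.17 to 0.36 and CNOT6L -0.39 to -0.08, with no call. CNOT7 was called higher in NGP at 3 days (0.45), and its paralog CNOT8 lower in Kelly at 3 days (-0.50) and NGP at 6 days (-0.53). The CNOT8 call in Kelly was lost without 0 h replicate 2 (-0.46, 0.132) or 6 h replicate 1 (-0.33, 0.327). PAN2 was called higher in NGP, at 0.62 and 1.11, and PAN3 in none of the 4 (-0.50 to 0.23).

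In decapping, the cofactor DCP1B and the enzyme DCP2 stood at opposite ends. DCP1B (chromosome 12, 1946053 to 2004535) went from 26.3 and 20.7 CPM to 14.97 and 8.29 in Kelly at 3 days and from 14.2 and 13.7 CPM to 2.45 and 4.93 in NGP at 6 days, without overlap. Its change was -1.02 ± 0.33, -1.13 ± 0.33, -1.33 ± 0.41 and -1.94 ± 0.42 in the usual order. Its paralog DCP1A was called in none of the 4 (-0.51, 0.23, -0.19 and 0.31). The NGP call of DCP1B at 6 days held in each refit, and the others did not. In Kelly they were lost without 0 h replicate 1 (-0.84, adjusted p 0.138 at 3 days and -0.82, 0.169 at 6 days) or 6 h replicate 2 (-0.65, 0.257 and -0.86, 0.129), and in NGP at 3 days without 0 h replicate 2 (-1.06, 0.120) or 6 h replicate 1 (-1.25, 0.0579). DCP2 (chromosome 5, 112976702 to 113022195) went from 114 and 99.3 CPM to 162 and 146 in Kelly at 3 days, relative to the typical gene. Its change was 0.53 ± 0.13, 0.62 ± 0.13, 0.58 ± 0.11 and 0.38 ± 0.11. Its call in NGP at 6 days was lost without 0 h replicate 2 (0.29, 0.0964) or 6 h replicate 1 (0.32, 0.0548). By ERCC scaling the level at 6 h was 107%, 63.2%, 85.9% and 62.7% of that at 0 h for DCP2. For DCP1B it was 36.5%, 18.8%, 22.9% and 12.6%. On this scale DCP2 lay below its 0 h level in 3 of the 4 and above the median of all genes in each.

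The LSM genes were called higher in 3, 3, 4 and 3 of 7 cases and lower in none, beside 14.4%, 13.2%, 19.0% and 18.0% of all tested genes called higher, and by ERCC scaling in 1, 0, 0 and 0 higher and 1, 7, 2 and 6 lower. LSM4 (chromosome 19, 18306230 to 18323274) went from 100 and 107 CPM to 176 and 194 in Kelly at 3 days and from 103 and 117 to 199 and 221 in NGP at 3 days. Its change was 0.83, 0.94, 0.93 and 0.66 and that of LSM3 0.64, 0.69, 0.78 and 0.83, with adjusted p from 1.49e-12 to 7.58e-05 in edgeR. In both genes the 6 h libraries lay above the 0 h libraries in every comparison. LSM1 and LSM2, in contrast, lay below 0 in all 4 without a call, from -0.46 to -0.06 and from -0.48 to -0.11. By ERCC scaling the level of LSM4 at 6 h was 132%, 79.0%, 109% and 75.9% of that at 0 h. XRN2 (chromosome 20, 21303331 to 21389825) was higher in all 4, by 0.53, 0.31, 0.44 and 0.31, whereas XRN1 was called in none (0.06 to 0.26). The XRN2 call in Kelly at 6 days was lost without 0 h replicate 1 (0.24, adjusted p 0.107).

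In the exosome more genes lay below 0 than above. Of its 12 genes 10, 11, 9 and 8 lay below 0, with 4, 3, 4 and 4 called lower and 0, 0, 1 and 1 called higher, beside 15.6%, 13.3%, 18.4% and 18.7% of all tested genes called lower. By library size alone the called numbers were 6, 6, 7 and 7 lower with 0 higher, and by ERCC scaling 8, 12, 10 and 12 lower with 0 higher. The median of all genes was itself at -0.10, -0.08, -0.26 and -0.24 by library size. By ERCC scaling that median was at -0.34, -1.18, -0.81 and -1.10, and 24, 53, 42 and 50 of the 53 members were called lower. EXOSC9 (chromosome 4, 121801317 to 121817021), a subunit of the ring, went from 82.5 and 87.7 CPM through 45.2 and 47.0 to 22.9 and 23.8 in Kelly at 3 days. The NGP libraries of 3 days went from 74.1 and 83.3 CPM through 61.0 and 65.3 to 38.3 and 44.2. Its change was -1.86 ± 0.20 and -1.98 ± 0.21 in Kelly and -0.93 ± 0.16 and -1.34 ± 0.16 in NGP, and 5.39% of its exon bases overlap CCNA2 on the other strand. EXOSC4 changed by -2.47 ± 0.49, -2.17 ± 0.48, -2.23 ± 0.35 and -2.44 ± 0.37, with adjusted p from 4.46e-08 to 9.16e-05 in edgeR. By ERCC scaling the level of EXOSC4 at 6 h was 13.4%, 9.12%, 12.2% and 8.87% of that at 0 h. The catalytic subunits moved little: DIS3 was called in none of the 4 (-0.01 to 0.29), EXOSC10 in none (-0.24 to -0.12), and DIS3L once, at -0.65 in NGP at 6 days. EXOSC5, called higher in NGP (0.48 and 0.46), was the member above 0 in all 4. Both calls were lost without 0 h replicate 1 (0.41, adjusted p 0.112 at 3 days and 0.35, 0.177 at 6 days), and also without 6 h replicate 1 at 3 days (0.45, 0.0578) and 6 h replicate 2 at 6 days (0.31, 0.234).

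Among the genes of nonsense-mediated decay UPF3A (chromosome 13, 114281601 to 114305817) was called higher in all 4, by 0.46, 0.88, 0.55 and 0.31, and its X-linked paralog UPF3B in 3, by 0.46, 0.69 and 0.40, with 0.15 in NGP at 6 days. UPF3A went from 78.9 and 91.1 CPM to 124 and 110 in Kelly at 3 days. Its call was lost there without 0 h replicate 1 (0.36, adjusted p 0.121) or 6 h replicate 1 (0.37, 0.0853), and in NGP at 6 days without 0 h replicate 1 (0.32, 0.0605) or 2 (0.29, 0.0929) or 6 h replicate 1 (0.24, 0.182). UPF3B was lost in Kelly at 3 days without 0 h replicate 1 (0.33, 0.167) and in NGP at 3 days without any of the 4 libraries (0.37 to 0.42, up to 0.105). UPF1, the helicase at the centre of the pathway, was lower in NGP (-0.51 and -0.44) and not called in Kelly (0.27 and 0.05). In NGP at 6 days the UPF1 call was lost without 6 h replicate 1 (-0.30, 0.116).

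Short sequence elements in the 3′ UTR are known to speed the loss of an mRNA by recruiting CCR4-NOT, so the canonical 3′ UTRs of the members (GENCODE 44, GRCh38) were searched on the transcript strand. The Pumilio element TGTANATA was in 17 of 53 members (32.1%) and in 25.4% of the 19515 canonical 3′ UTRs. It lay in EXOSC9 and CNOT2 among the 7 genes lost faster in all 4 comparisons and in DCP2 and UPF3A among the 5 lost more slowly. The AU-rich nonamer TTATTTATT was in 2 of 53 members, UPF1 and EXOSC6, and in 8.44% of all. It was in none of the 7 and none of the 5. The 3′ UTR of EXOSC4 is only 47 bases long and held none of these elements. The Pumilio sites of EXOSC9, CNOT2, DCP2 and UPF3A are shown because the same element stands in genes at both ends of the order of loss. Length sets how often a match is found. Among 3′ UTRs within 20% of the length, 2.94% held it for EXOSC9 (165 bases) and 21.2% for CNOT2 (1078 bases). For UPF3A (900 bases) the share was 17.7%, for DCP2 (8711 bases) 77.6% and for EXOSC4 2.03%. Capitals mark the element, with 10 bases on each side, read 5′ to 3′ on the strand given.
EXOSC9, chr4:121816865-121816892, plus strand: gttgtatatcTGTATATAtaactattaa
CNOT2, chr12:70354643-70354670, plus strand: tgtacgaatgTGTATATAttatatatat
DCP2, chr5:113014314-113014341, plus strand: attccagttgTGTAAATAtgtatggaaa
DCP2, chr5:113020793-113020820, plus strand: agctttttgaTGTAAATAataggttaga
UPF3A, chr13:114305666-114305693, plus strand: atactttattTGTAAATAacttaaaata
A match is a description of these letters, and binding at these sites was not measured.

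The decay difference, 6 h minus 0 h in STM2457 less the same in DMSO, asked whether the inhibitor changed the loss of these transcripts. In each line and duration 0 of 53 members passed in edgeR. Of all tested genes 0.221% (3 days) and 0.424% (6 days) passed in Kelly, and 0.703% and 2.54% in NGP. At an unadjusted p under 0.05 there were 2, 6, 5 and 13 members. The shares of all tested genes at that cut-off and by DESeq2 are not given here, so such counts are not read as an excess. limma-voom called 0 in each, and DESeq2 called 0, 2, 0 and 3, namely DDX6 (0.40, adjusted p 0.0412) and EDC4 (-0.53, 0.0242) in Kelly at 6 days and EXOSC10 (-0.32, 0.0273), DCPS (-1.27, 0.0480) and EDC3 (0.66, 0.0205) in NGP at 6 days. The members' medians were -0.05, -0.09, -0.11 and 0.05, beside 0.02, 0.01, 0.00 and -0.02 for all tested genes. Of simulated 2-fold changes of this kind 14.9% were recovered in Kelly and 29.9% in NGP, both at 6 days, and 50.0% and 66.7% of 4-fold changes, over all genes. Among genes with a mean count of 300 or more the shares were 45.5% and 69.2% of 2-fold and 96.6% and 100% of 4-fold changes. Here too the simulated spread was that of the trend and not each gene's own. With ERCC scaling 14 members passed lower (Kelly, 3 days), and 31 (Kelly, 6 days) and 21 (NGP, 6 days) passed higher, where the median of all genes was itself at -0.37, 0.70 and 0.41.

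EXOSC4 had the highest value of the 53 in each of the 4 decay differences. For Kelly these values were 1.12 ± 0.66 (3 days) and 1.20 ± 0.65 (6 days), and for NGP 1.28 ± 0.47 and 1.17 ± 0.48, with adjusted p of 0.707, 0.650, 0.293 and 0.266 in edgeR. The estimates were alike and above 0, and none passed. Scaled to ERCC the values were 0.71, 1.91, 1.43 and 1.60, with adjusted p of 0.539, 0.0140, 0.124 and 0.0114 in edgeR. Both comparisons at 6 days thus passed, where the median of all genes was itself at 0.70 (Kelly) and 0.41 (NGP). With that scaling 31 and 21 of the 53 members passed higher there.

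Because EXOSC4 stood out in the values per library, the 2 treatments were also compared after 3 and 6 h of actinomycin D, a comparison added after the values of the members were seen. In DMSO the gene was at 12.5 and 15.8 CPM at 0 h, 6.04 and 3.62 at 3 h and 1.51 and 3.59 at 6 h in Kelly at 3 days. In STM2457 it was at 12.9 and 19.3, 15.2 and 14.6, and 3.89 and 8.79 CPM. The 3 h libraries thus lay below the 0 h libraries in DMSO and within their range in STM2457, and the treatments overlapped at 0 h only. In Kelly at 6 days it was at 12.3 and 16.5, 4.73 and 3.11, and 4.98 and 1.42 CPM in DMSO. There, in STM2457, it was at 10.998 and 16.3, 11.7 and 12.9, and 7.17 and 6.73 CPM. This is the same pattern as at 3 days.

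In NGP the STM2457 libraries lay above the DMSO libraries already at 0 h, with a call at 6 days (1.14) and none at 3 days (0.59). The effect at 0 h did not pass a test of difference between the lines at 6 days (1.23 ± 0.60, adjusted p 0.492 in edgeR). At 3 days EXOSC4 was at 16.5 and 17.4, 8.50 and 8.17, and 2.78 and 4.49 CPM in DMSO at 0, 3 and 6 h. In STM2457 it was at 25.9 and 25.0, 23.6 and 21.1, and 14.6 and 11.6 CPM. The 6 h libraries in STM2457 thus stood near the 0 h libraries in DMSO. At 6 days it was at 9.87 and 13.99, 11.1 and 7.33, and 0.962 and 3.62 CPM in DMSO and at 23.96 and 28.5, 20.3 and 17.4, and 9.47 and 12.3 CPM in STM2457. After 3 and 6 h the treatments overlapped in none of the 4 courses. EXOSC4 counts are small, with 20 to 438 fragments in a library.

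**Figure D2:**
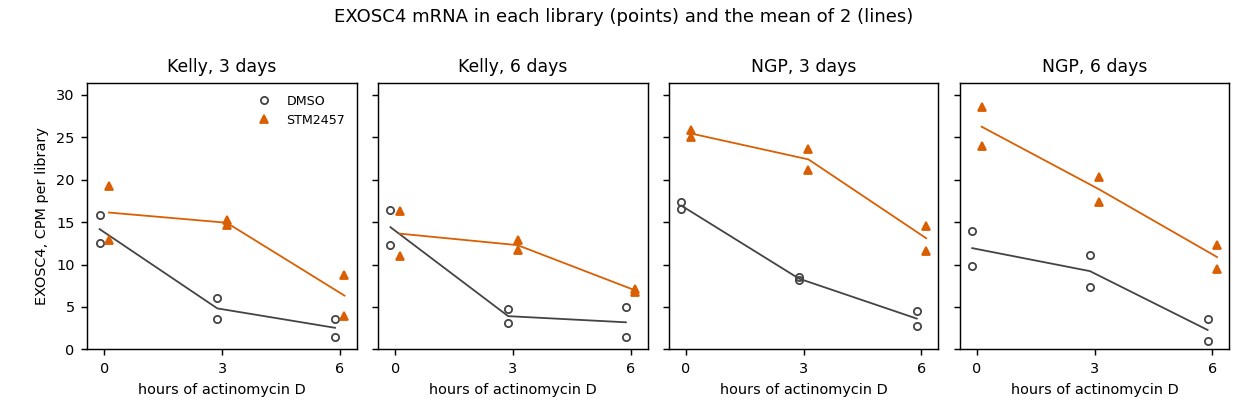
EXOSC4 in CPM by hour of actinomycin D in DMSO and STM2457, in 4 panels for Kelly and NGP at 3 and 6 days, with 1 point per library and lines through group means. The STM2457 libraries lie above the DMSO libraries at 3 and 6 h in each panel, and in NGP also at 0 h.

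After 3 h the log2 difference of EXOSC4, STM2457 minus DMSO, was 1.63 ± 0.47 (3 days) and 1.65 ± 0.47 (6 days) in Kelly, and in NGP 1.42 ± 0.33 and 1.03 ± 0.33, with adjusted p of 0.0162, 0.0144, 0.00168 and 0.0315 in edgeR. After 6 h it was 1.31 ± 0.48 and 1.12 ± 0.48 in Kelly (adjusted p 0.0782 and 0.136, not called) and 1.86 ± 0.35 and 2.31 ± 0.37 in NGP (4.85e-05 and 2.39e-06). All 8 values were above 0 and 6 passed. The calls in NGP at 3 days for both hours and at 6 days for 6 h held in each refit with 1 library left out. The 3 h call in Kelly at 3 days was lost without DMSO replicate 2 (1.30, 0.243) or STM2457 replicate 1 (1.59, 0.0796). At 6 days in Kelly it was lost without DMSO replicate 2 (1.37, 0.267), STM2457 replicate 1 (1.72, 0.0572) or STM2457 replicate 2 (1.58, 0.11). In NGP at 6 days the 3 h call was lost without DMSO replicate 2 (0.76, 0.336), STM2457 replicate 1 (0.91, 0.186) or STM2457 replicate 2 (1.13, 0.0504). It was also lost with a trend on exon length removed (0.91, 0.0637) and with the libraries of 6 days alone (1.03, 0.0652). The comparisons at 3 h and 6 h share no library with each other or with that at 0 h. EXOSC4 was, however, chosen from the values of these same libraries, so its calls there are not separate support for that choice. The decay difference does share the 0 h and 6 h libraries with them.

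Among the other members few differed between the treatments after actinomycin D. After 3 h, 3 of 53 Kelly values passed at 3 days (5.83% of all tested genes) and 2 at 6 days (5.20%), with 5 for NGP at 3 days (7.93%) and 4 at 6 days (8.64%), with EXOSC4 in each. After 6 h, 5 Kelly values passed at 3 days (7.81%) and 6 at 6 days (9.89%), with 5 for NGP at 3 days (11.6%) and 6 at 6 days (9.16%), with EXOSC4 in both of the latter. The members' shares were near those of all genes. With ERCC scaling the split of higher and lower members after 6 h went from 3 and 3 to 29 and 0 (Kelly, 6 days), from 2 and 3 to 11 and 0 (NGP, 3 days) and from 4 and 2 to 30 and 0 (NGP, 6 days). The median of all genes was then at 0.47, 0.24 and 0.38. With that scaling it went after 3 h from 2 and 1 to 20 and 0 (Kelly, 3 days), from 2 and 0 to 7 and 0 (Kelly, 6 days), from 2 and 3 to 2 and 9 (NGP, 3 days) and from 2 and 2 to 3 and 2 (NGP, 6 days), and from 2 and 3 to 2 and 2 in Kelly at 3 days after 6 h. With library size alone the splits after 6 h were 2 and 0, 3 and 2, 5 and 2, and 6 and 1 in the usual order, and after 3 h 2 and 0 in Kelly and 2 and 1 in NGP at 3 days.

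**Figure D3:**
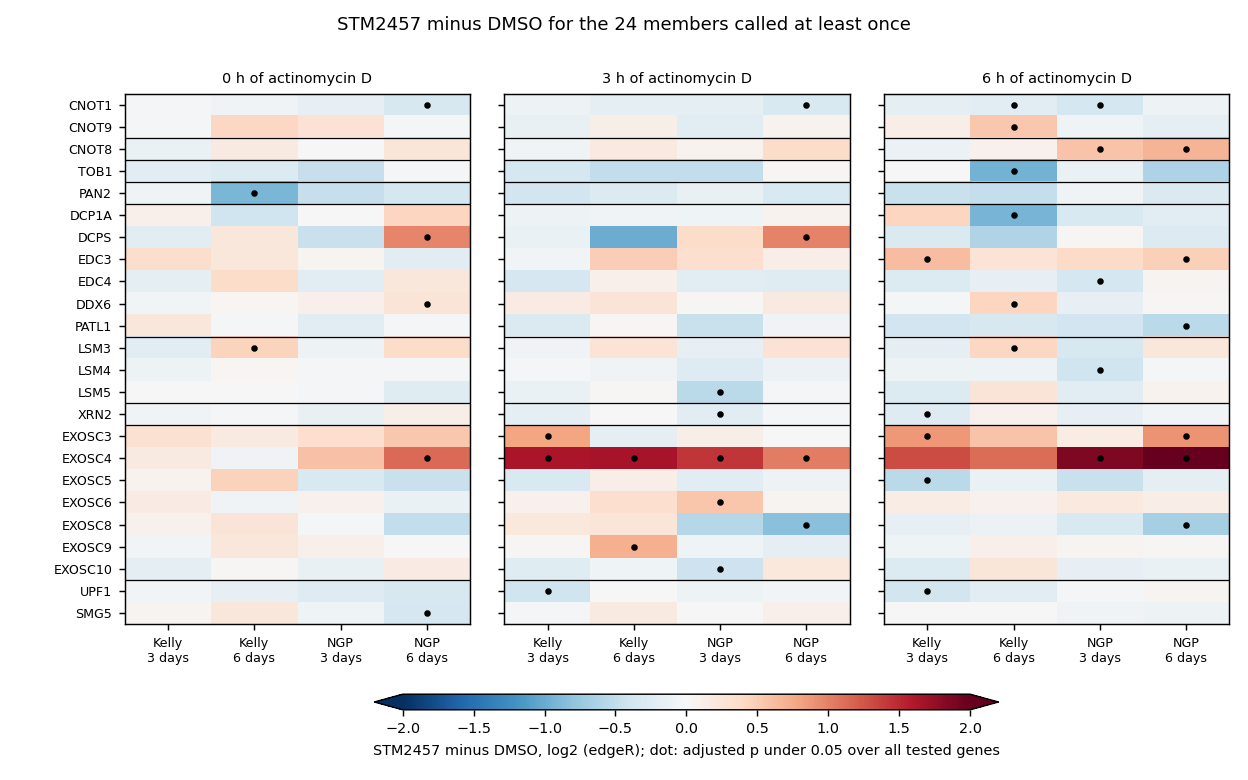
STM2457 minus DMSO (log2) at 0, 3 and 6 h of actinomycin D in Kelly and NGP at 3 and 6 days for the 24 members called in at least 1 of these 12 comparisons, with called values marked. EXOSC4 is the gene called at 3 h in all 4 line and duration pairs.

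CNOT1 was called lower under STM2457 at some of the further hours. It was not called in NGP at 3 days after 3 h (-0.18) or at 6 days after 6 h (-0.10). In Kelly it was not called at 3 days after 3 h (-0.11) or 6 h (-0.20), nor at 6 days after 3 h (-0.18). In NGP at 3 days after 6 h it was at 755 and 744 CPM in DMSO and 612 and 565 in STM2457, a log2 difference of -0.35 ± 0.06 with an adjusted p of 3.26e-05 in edgeR. In NGP at 6 days after 3 h it was at 726 and 722 CPM in DMSO and 575 and 591 in STM2457, a difference of -0.31 ± 0.06 with an adjusted p of 0.000235. Both calls held in each refit, and the groups did not overlap. In Kelly at 6 days after 6 h the difference was -0.21 ± 0.07 (0.0429), which turned to 0.24 with ERCC scaling and lost its call without DMSO replicate 1 (-0.12, 0.545), STM2457 replicate 1 (-0.19, 0.183) or STM2457 replicate 2 (-0.23, 0.0712). CNOT8, a deadenylase of the same complex, was higher in NGP after 6 h. It was at 36.3 and 33.2 CPM in DMSO and 52.2 and 59.3 in STM2457 at 6 days, a difference of 0.68 ± 0.15 with an adjusted p of 0.00111 by edgeR that held in each refit. At 3 days it was at 47.7 and 51.3 CPM in DMSO and 77.8 and 68.8 in STM2457, a difference of 0.57 ± 0.15 (0.00532). Without DMSO replicate 1 (0.53, 0.0679) or STM2457 replicate 1 (0.48, 0.111) it no longer passed.

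Other exosome genes were called after actinomycin D too, and those described next, like CNOT8 above and DCP1A below, were chosen after their values were seen. EXOSC3, a cap protein of the ring, was higher in Kelly at 3 days after 3 h (0.78 ± 0.26, adjusted p 0.0486 by edgeR) and 6 h (0.87 ± 0.26, 0.0207) and in NGP at 6 days after 6 h (0.90 ± 0.21, 0.00191). Its 6 h libraries in NGP at 6 days were at 20.2 and 21.4 CPM in DMSO and 32.6 and 45.2 in STM2457, and without STM2457 replicate 2 the difference was 0.65 (0.104). In Kelly its call after 3 h was lost in each of 4 refits (0.63 to 0.92, adjusted p up to 0.284), and after 6 h without DMSO replicate 1 (0.65, 0.290) or STM2457 replicate 1 (0.74, 0.178). EXOSC8 was lower in NGP at 6 days, at 32.3 and 32.3 CPM in DMSO and 15.01 and 21.2 in STM2457 after 3 h (-0.84 ± 0.22, 0.00513) and with -0.66 ± 0.22 (0.0476) after 6 h. These calls were lost without STM2457 replicate 1 after 3 h (-0.61, 0.283) and in each of 4 refits after 6 h (-0.72 to -0.59, up to 0.290). EXOSC10, the nuclear catalytic subunit, was lower in NGP at 3 days after 3 h, at 232 and 229 CPM in DMSO and 172 and 173 in STM2457, a difference of -0.42 ± 0.09 with an adjusted p of 0.000551 that held in each refit. In Kelly at 6 days after 6 h DCP1A was at 44.6 and 44.6 CPM in DMSO and 22.3 and 24.2 in STM2457, a difference of -0.94 ± 0.23 (0.00171) that held in each refit, while at 3 days its libraries were higher in STM2457, at 32.5 and 34.0 against 25.0 and 24.2, without a call.

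The lines differed in the level of many members before treatment. Between the DMSO libraries at 0 h 22 members were called at 3 days (10 higher in NGP, 12 lower), where 30.0% of all tested genes were, and 22 at 6 days (13 higher, 9 lower), where 31.6% were. With ERCC scaling the splits were 23 and 4 at 3 days and 9 and 12 at 6 days, with medians of all genes of 0.27 and -0.13. With library size alone the split at 6 days was 10 and 11. CNOT2 stood apart. It was at 76.8, 66.8, 74.1 and 73.5 CPM in Kelly and at 1002, 1006, 984 and 969 CPM in NGP, a log2 difference of 3.85 ± 0.12 at 3 days and 3.77 ± 0.12 at 6 days. No other member differed by more than 1.42 on this scale in either direction. Other subunits of CCR4-NOT that differed at both durations were CNOT1 (0.28 and 0.36), CNOT10 (1.22 and 1.15) and CNOT11 (0.84 and 1.42), higher in NGP, and CNOT3 (-1.02 and -0.68), CNOT4 (-0.87 and -0.75) and CNOT6 (-0.91 and -0.89), lower in NGP. TOB1 was lower in NGP as well, by -1.31 and -1.22. The CNOT1 call at 3 days was lost without NGP replicate 2 (0.21, adjusted p 0.0589) and the CNOT11 call without NGP replicate 1 (0.56, adjusted p 0.163 by edgeR).

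The neighbours of CNOT2 on chromosome 12 were looked at after its value was seen. Of 13 tested genes that start or end within 1 Mb on either side, 5 were called higher in NGP at both durations: CPSF6, YEATS4, FRS2, CCT2 and KCNMB4. CCT2, a subunit of the TRiC chaperonin, differed by 3.80 and 3.81 and CPSF6, a pre-mRNA cleavage factor, by 3.18 and 3.29. RAB3IP, which lies between them and CNOT2, differed by -1.62 and -0.13. The median over the 13 was 2.84 and 2.98, which is the value of PTPRB, not called (adjusted p 0.0735 and 0.0552 in the joint edgeR fit). PTPRB had at most 57 fragments in a Kelly library. LYZ, LRRC10, BEST3, MYRFL, PTPRR and TSPAN8 had at most 11 to 65 there, and none of them was called. The median thus rests in part on genes with very few fragments in Kelly. DNA copy number was not analysed here.

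**Figure D4:**
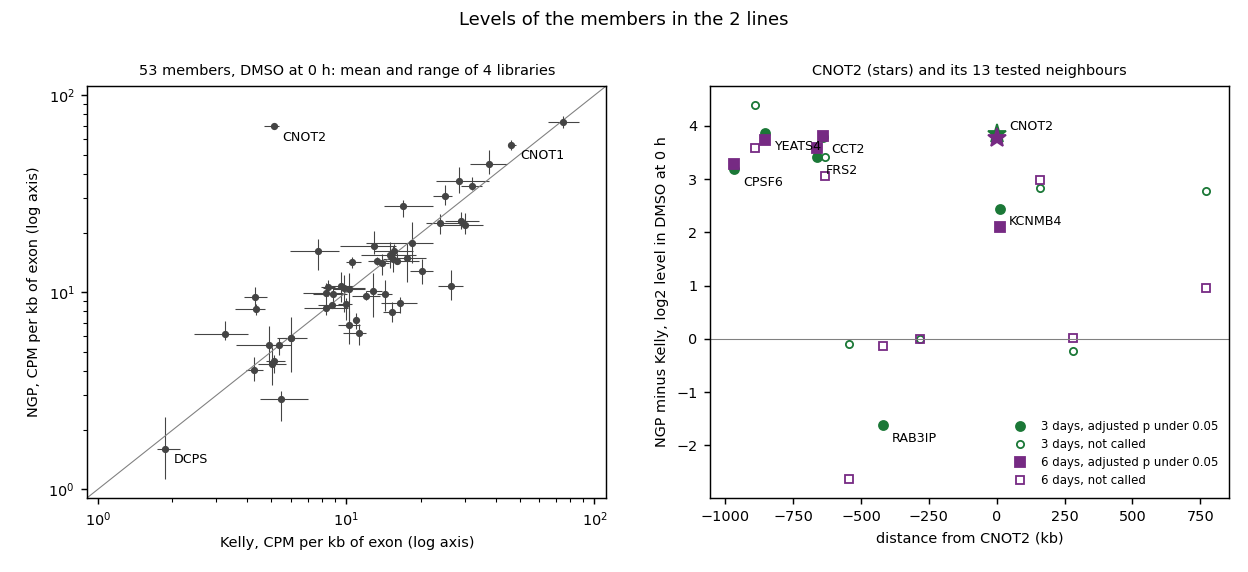
Left, level per kilobase of exon of the 53 members in NGP against Kelly in DMSO at 0 h (points are means and bars ranges of 4 libraries, log axes, with the line of equal level). Right, NGP minus Kelly log2 difference for CNOT2 and its tested neighbours by distance in kb. CNOT2 lies far above the diagonal, and CCT2, YEATS4, FRS2 and CPSF6 lie near it in the right panel while RAB3IP does not.

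The loss after actinomycin D in DMSO differed between the lines for 3 members at 3 days, where 1.59% of all tested genes did, and for 6 at 6 days, where 4.25% did, by an interaction term in the joint edgeR fit. With ERCC scaling the 3 that were higher and 3 lower at 6 days became 5 and 1, and at 3 days 2 and 1 became 0 and 5. With library size alone the splits were 2 and 4 at 6 days and 1 and 1 at 3 days. CNOT2 was the member called at both, with an NGP minus Kelly difference of 0.87 ± 0.16 and 0.91 ± 0.16 (adjusted p 0.000256 and 4.38e-05), and held in all 8 refits at each. The call at 3 days was lost with ERCC scaling (adjusted p 0.0506) and in limma-voom (0.88, 0.0946). DDX6 went from 177 and 169 CPM to 141 and 153 in Kelly at 6 days and from 154 and 129 to 207 and 215 in NGP, a difference of 0.84 ± 0.13 with an adjusted p of 2.27e-06 by edgeR. SMG5 went from 178 and 167 CPM to 288 and 321 in Kelly at 6 days and from 247 and 281 to 262 and 278 in NGP, a difference of -0.76 ± 0.13 with an adjusted p of 2.40e-05. The DDX6 and SMG5 calls held in all 8 refits. DDX6 was thus called higher at 6 h in NGP (0.58) and not in Kelly (-0.24), and SMG5 higher in Kelly (0.82) and not in NGP (0.03). At 3 days SMG5 was called higher in both lines (0.47 and 0.26), and the NGP call was lost without 0 h replicate 1 (0.25, adjusted p 0.0648) or 6 h replicate 1 (0.22, 0.0928).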

How the data were processed

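The deposited files hold, per the file headers, whole-number counts of fragments per gene, made by the authors with featureCounts 1.5.3 on GENCODE 33 protein-coding genes and 92 ERCC sequences, with no strand option named. The submitters' processing notes name FastQC 0.11.5, Trimmomatic 0.36, HISAT2 2.1.0, Subread 1.5.3 and GRCh38. Genes that overlap (10.0% of CNOT1 exon bases with SETD6, 8.94% of EXOSC8 with SUPT20H, 6.72% of EXOSC3, 5.39% of EXOSC9 with CCNA2, 4.15% of CNOT8 with FAXDC2) are uncertain to that extent. The same holds for SMG6 (22.9%, HIC1), EDC3 (13.8%, CLK3), EXOSC7 (13.6%, CLEC3B, on the same strand) and LSM1 (11.8%, BAG4). It also holds for DIS3 (10.9%, BORA), CNOT3 (7.64%, LENG1) and DCP2 (0.868%, MCC).

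Counts were tested with edgeR 4.0.16 (R 4.3.3, quasi-likelihood test, TMM, Benjamini-Hochberg threshold 0.05) after a filter with a minimum count of 10 and total of 15. All 24 libraries of a line were fitted together (16759 genes in Kelly, 14661 in NGP), and all 48 for differences between lines (17343 genes). ERCC rows entered only the ERCC scaling. Intervals and SEs rest on the spread between the 2 libraries of a group, pooled over all groups of a fit. Alternatives were DESeq2 1.42.0, limma-voom 3.58.1, RLE, library size or ERCC scaling, no filter, an exon length trend removed, a replicate block, the same duration alone and leaving out each library. Scripts were tested on simulated data. Named genes were those called in an STM2457 comparison at 0 h or a decay difference, those called the same way in all 4 DMSO decay comparisons, and the paralog pairs. The members and lists were chosen with earlier results of these data known. The 3 h and 6 h comparisons of the treatments were added after the values were seen. A result for 1 marker gene is not reported here.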

Additional observations from a re-analysis of the deposited data

Results flagged for a closer look

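In 11 cases the test of the difference between NGP and Kelly passed (joint edgeR fit, Benjamini-Hochberg adjustment). For the loss after actinomycin D in DMSO at 3 days, NGP minus Kelly was 0.87 for CNOT2, 0.79 for CNOT9 and -0.76 for UPF1. The CNOT9 call was lost in 5 of 8 refits with 1 library left out (0.66 to 0.80, adjusted p up to 0.153), and the UPF1 call without Kelly DMSO 0 h replicate 2 (-0.67), 6 h replicate 1 (-0.59) or NGP 6 h replicate 2 (-0.66).

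At 6 days the same difference was 0.91 for CNOT2, 0.84 for DDX6, 1.21 for BTG3, -0.34 for CNOT1, -0.49 for SMG1 and -0.76 for SMG5. The BTG3 call was lost in 8 of 8 refits (1.03 to 1.43, adjusted p up to 0.302) and the CNOT1 call in 5 of 8 (-0.35 to -0.20, up to 0.419). The SMG1 call was lost without Kelly 0 h replicate 2 (-0.46, 0.0530) or NGP 6 h replicate 2 (-0.42, 0.0793), and its reads may be split with pseudogene copies.

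For the effect of STM2457 at 0 h after 6 days, NGP minus Kelly was -0.89 for EXOSC5 and -0.56 for SMG5. The EXOSC5 call was lost in 6 of 8 refits (-0.93 to -0.78, adjusted p up to 0.205). The SMG5 call was lost without NGP DMSO replicate 2 (-0.46, 0.0695) or NGP STM2457 replicate 1 (-0.47, 0.0616).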

How the results depend on the processing

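Of 192 called member values, 0 changed sign under any alternative, where values with ERCC scaling were first set against the median of all genes. Calls with that scaling were those of the fit itself, in either direction. A member called higher in the main fit and lower with ERCC scaling thus counts as keeping its call. For decay in DMSO in Kelly at 6 days, 53 members were called lower and 0 higher with that scaling, including those called higher in the main fit. The numbers that lost their call were 3 by DESeq2, 19 by limma-voom, 9 with RLE, 37 with library size alone, 49 with ERCC scaling, 14 with the exon length trend removed, 6 without the filter, 16 with the same duration alone and 213 of 812 values over the refits without 1 library; the cause was not tested. In the order Kelly at 3 and 6 days, NGP at 3 and 6 days, the members called with ERCC scaling were 21, 7, 1 and 4 for STM2457 at 0 h, 25, 53, 42 and 50 for decay in DMSO, 14, 31, 0 and 21 for the decay difference, 20, 7, 11 and 5 at 3 h and 4, 29, 11 and 30 at 6 h. With that scaling 26 (Kelly) and 1 (NGP) differed between durations, 3 between lines in the drug effect at 3 days and 5 in decay at 3 days. DESeq2 called 5, 2 and 8 at 0 h (Kelly at 6 days, NGP at 3 and 6 days), 2 and 3 decay differences (Kelly and NGP at 6 days), 2 and 2 differences between durations, 7, 8 and 7 at 3 h (Kelly at 6 days, NGP at 3 and 6 days) and 11 at 6 h in NGP at 3 days. limma-voom called 1 at 0 h in Kelly at 6 days, 1 line difference in decay at 3 days, 1 in the drug effect at 6 days, 1 at 3 h in Kelly at 3 days and 3 and 3 at 6 h in Kelly. In Kelly at 6 days at 0 h, RLE, library size, the exon length trend and the same duration alone each left 1, and the exon length trend gave 1 in NGP at 3 days, CNOT1. Library size gave 3 at 3 h in NGP at 3 days and 2 at 6 h in Kelly at 3 days. The same duration alone gave 5 line differences in decay at 3 days, 1 at 3 h in Kelly at 6 days and 2 at 6 h in Kelly at 3 days. Line differences in decay at 3 days numbered 2 with RLE, library size or the exon length trend.

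Leaving out 1 library gave 0, 0 to 1, 0 and 2 to 4 calls at 0 h, 17 to 21, 17 to 20, 21 to 23 and 23 to 25 for decay, 0, 0, 0 and 0 to 2 decay differences, 1 to 2, 0 to 1, 3 to 4 and 1 to 4 at 3 h, and 1 to 6, 3 to 6, 3 to 6 and 3 to 4 at 6 h. It gave 0 to 1 and 0 differences between durations, 15 to 18 and 16 to 18 line differences in level, 2 to 3 and 3 to 6 in decay and 0 and 0 to 2 in the drug effect.

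The replicate numbers did not pair the libraries: deviations of same-numbered libraries correlated by -0.037 to 0.050 in Kelly and -0.028 to 0.099 in NGP over 66 pairs of groups each. With a replicate block 0, 3, 0 and 5 members were called at 0 h, 21, 21, 26 and 27 for decay and 0 for each decay difference. Depth limited the least abundant members most, and EXOSC4 had 20 to 438 fragments in a library.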

Other observations

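Other genes of the same pathways, 62 in a list chosen with earlier results known, gave further values. PABPC1, the main cytoplasmic poly(A) binding protein, was lower under STM2457 at 0 h in Kelly at 6 days (-0.28, adjusted p 2.59e-06 by edgeR's quasi-likelihood test) and in NGP at 3 and 6 days (-0.31, 8.12e-09 and -0.29, 1.4e-08), with -0.04 in Kelly at 3 days (0.943). Of the 62, 0, 3, 3 and 5 passed at 0 h in Kelly at 3 and 6 days and NGP at 3 and 6 days, where 1.68%, 3.97%, 3.70% and 7.99% of all tested genes did. PABPC1 was lost more slowly than the typical gene in DMSO, by 0.88, 0.80, 0.84 and 0.97.

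The antiproliferative adaptors BTG1 and BTG2, relatives of the TOB genes, were lost fast in DMSO. BTG1 changed by -2.66, -2.87, -2.30 and -2.09 and BTG2 by -3.91, -2.04, -2.90 and -1.50. In the decay difference, BTG2 passed in Kelly at 3 days (1.76, adjusted p 0.0469 by edgeR) and the nuclear exosome adaptor ZCCHC8 in NGP at 6 days (0.63).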
